A study of Mus musculus with 48 samples.

Results

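Spp1, Gpnmb, Arg1, Trem2 and Fabp5 are genes widely used to describe macrophages of tumours, and they were followed here across immune cells sorted from mouse colon tumours. The members are the listed rows of a gene count table, read over 4 sorted populations and 2 genotypes. Of the 5 genes, 4 had a row among the 24537 gene rows of the table, and Trem2 is not analysed here. Tumours had been raised with the carcinogen azoxymethane and with dextran sulfate sodium, a chemical that inflames the bowel, and all samples are labelled day 85. Mice labelled ko carry a knockout of Ccl17, which encodes a chemokine made mainly by dendritic cells, and were set against mice labelled ctrl. The sort used Ly6C, a surface protein of freshly recruited monocytes, and MHC class II, the molecule that shows antigen to helper T cells. The strain, the age and the kind of knockout allele are not in the labels, and the series holds ko mice cohoused with controls as well as ko mice housed apart, with no housing label per sample. Ly6Clo MHCIIhi had 8 ko and 8 ctrl replicates, Ly6Clo MHCIIlo 4 and 4, Ly6Chi MHCIIhi 4 and 3, and Ly6Chi MHCIIlo 4 and 4. All 8 groups received the same tumour protocol, and none of the samples is from untreated mice. The labels do not say that replicates are separate animals, so every p-value measures the spread between these samples.

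Blood monocytes that enter a tumour lose Ly6C as they become macrophages, and tumour macrophages can take on a programme of lipid uptake, matrix handling and tissue repair. Spp1 encodes osteopontin, a secreted matrix protein that binds integrins and CD44. Gpnmb encodes a transmembrane glycoprotein of lysosomes and of the cell surface, and its expression in macrophages is driven by MITF and TFE transcription factors. Arg1 encodes arginase, which breaks arginine down to ornithine and urea and is a marker of alternatively activated mouse macrophages. Fabp5 encodes a small cytosolic protein that carries fatty acids. Trem2 encodes a lipid-sensing receptor that signals through the adaptor Tyrobp.

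In the GENCODE M21 annotation of GRCm38, Spp1 (ENSMUSG00000029304.14) lies on the plus strand of chromosome 5 at 104435118 to 104441050. Gpnmb (ENSMUSG00000029816.10) lies on the plus strand of chromosome 6 at 49036546 to 49070929. Arg1 (ENSMUSG00000019987.9) lies on the minus strand of chromosome 10 at 24915221 to 24927484. Fabp5 (ENSMUSG00000027533.10) lies on the plus strand of chromosome 3 at 10012548 to 10016607. The table also has a row for Fabp5l2, a processed pseudogene of the Fabp5 family, with 0 to 5 counts per replicate. The handling of reads shared between such copies is not stated in the sources used here.

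The RefSeq promoter table (GRCm38.p6) had entries for 2 of the 4 genes, Spp1 and Gpnmb. The 250 bases before their starts are shown because these genes had the largest folds of the 4 between sorted populations. They lie at chr5:104434861-104435110 and chr6:49036268-49036517, both on the plus strand, and Spp1 is given for the first of the 2 starts in the table. Capitals mark the one match found.
Spp1: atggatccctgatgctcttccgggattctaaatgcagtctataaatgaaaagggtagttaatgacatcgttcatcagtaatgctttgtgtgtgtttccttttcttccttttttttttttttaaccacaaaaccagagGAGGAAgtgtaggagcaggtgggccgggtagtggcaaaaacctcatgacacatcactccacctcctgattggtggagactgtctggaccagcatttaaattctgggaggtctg
Gpnmb: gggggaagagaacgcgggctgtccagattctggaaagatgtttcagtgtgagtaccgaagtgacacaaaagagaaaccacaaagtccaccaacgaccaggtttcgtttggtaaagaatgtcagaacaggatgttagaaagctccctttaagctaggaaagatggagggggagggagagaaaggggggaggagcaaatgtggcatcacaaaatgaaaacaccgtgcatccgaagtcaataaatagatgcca
Searched on both strands were the E-box CACGTG and the M-box TCATGTG of MITF and TFE factors, the AP-1 site TGANTCA and the purine-rich core GAGGAA bound by PU.1. GAGGAA was found in the Spp1 window on the plus strand, where it is printed in capitals, and it occurs in 23.3% of the 32851 RefSeq promoter windows of the same length. The other motifs, which occur in 6.02% (CACGTG), 3.25% (TCATGTG) and 6.75% (TGANTCA) of windows, have no match in these letters.

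The sort labels were matched by their own genes. Ly6c2, which encodes a Ly6C protein, averaged 1191 CPM (counts scaled to a common library size, after the TMM correction for RNA composition) in Ly6Chi MHCIIlo and 525 in Ly6Chi MHCIIhi, against 43.5 in Ly6Clo MHCIIlo and 25.7 in Ly6Clo MHCIIhi. Cd74, the invariant chain of MHC class II, averaged 13457 CPM in Ly6Clo MHCIIhi and 9702 in Ly6Chi MHCIIhi, against 2598 in Ly6Clo MHCIIlo and 1818 in Ly6Chi MHCIIlo. Summed over 8 macrophage markers, all of them detected in each population, the median was 13927 CPM in Ly6Clo MHCIIhi, 12895 in Ly6Clo MHCIIlo, 5701 in Ly6Chi MHCIIhi and 3172 in Ly6Chi MHCIIlo. Ccl17 itself ranged over 0 to 6.72 CPM in the ko and 0 to 775 CPM in the ctrl replicates of Ly6Clo MHCIIhi (two-sided exact permutation p = 0.0312, smallest possible 0.000155). It reached at most 33.3 CPM in any replicate of the other populations, where the exact p was 0.143, 0.657 and 0.486.

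The deposited values are whole-number counts per gene and library, and library totals ran from 8409 to 500687 counts. The library of Ly6Chi MHCIIhi ctrl replicate 2, with 8409 counts, lay under 0.1 of the median total and was left out, and the lowest total kept was 34362, in Ly6Chi MHCIIhi ctrl replicate 3. Ly6Chi MHCIIhi ctrl replicate 1, with 78264 counts, stands apart: its 4 red cell genes summed to 298649 CPM and its 9 neutrophil genes to 74396 CPM, against at most 1628 and 1652 CPM in the other replicates of that population. The members' folds that use Ly6Chi MHCIIhi are therefore given with and without it. Ly6Clo MHCIIhi ctrl replicate 3 also differed from the rest of its group, and values without it are given with the comparison of genotypes in that population. Neutrophil genes were also higher in the MHCIIlo gates, with medians of 12365 CPM in Ly6Clo MHCIIlo and 10197 in Ly6Chi MHCIIlo, against 695 in Ly6Clo MHCIIhi and 776 in Ly6Chi MHCIIhi, and their part in the differences between MHCIIhi and MHCIIlo cells was not tested. In every population but Ly6Clo MHCIIhi the ko libraries all carried G/C-rich barcodes and the ctrl libraries all A/T-rich ones, so there the effects of barcode and of knockout cannot be told apart.

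Spp1 and Gpnmb were highest in Ly6Clo MHCIIlo cells and lowest in Ly6Chi MHCIIlo cells. Between these populations Spp1 rose 4.81-fold and Gpnmb 16.5-fold in Ly6Clo MHCIIlo. Arg1 also had its highest mean in Ly6Clo MHCIIlo. Over both genotypes its lowest mean was that of Ly6Clo MHCIIhi, but this order was not separated from the Ly6Chi populations by the test and did not hold in ctrl samples alone. Fabp5 followed another order, with its highest level in Ly6Clo MHCIIhi. No member passed the threshold, an adjusted p under 0.05, between ko and ctrl in any population, where 0% to 0.0756% of all genes tested passed.

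Read against all genes, the members were called as follows. The members and the 8 gene lists used below were chosen with earlier results of these data known, so such counts are descriptive. All 4 were higher in Ly6Clo MHCIIlo than in Ly6Chi MHCIIlo, where 37.2% of 4336 genes passed and 18.3% were higher and 18.9% lower. Of the 4, 3 were lower and 1 higher in Ly6Clo MHCIIhi than in Ly6Clo MHCIIlo, where 25.5% of 4817 genes passed, 13% lower and 12.5% higher. The pair farthest apart on both markers, Ly6Clo MHCIIhi against Ly6Chi MHCIIlo, had 3 of 4 higher where 42.6% of 5702 genes passed, 20.9% higher and 21.7% lower. In Ly6Clo MHCIIlo against Ly6Chi MHCIIhi, 2 of 4 were higher where 23.3% of 4175 genes passed, 11.3% higher and 12% lower. Between Ly6Clo MHCIIhi and Ly6Chi MHCIIhi, 1 of 4 was higher in the Ly6Clo cells, where 15.7% of 5541 genes passed, 8.32% higher and 7.42% lower. In Ly6Chi MHCIIhi against Ly6Chi MHCIIlo, 1 of 4 was higher where 2.99% of 4756 genes passed, 1.32% higher and 1.66% lower. Some of these comparisons share samples of a population and are therefore not independent of each other.

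**Figure D1:**
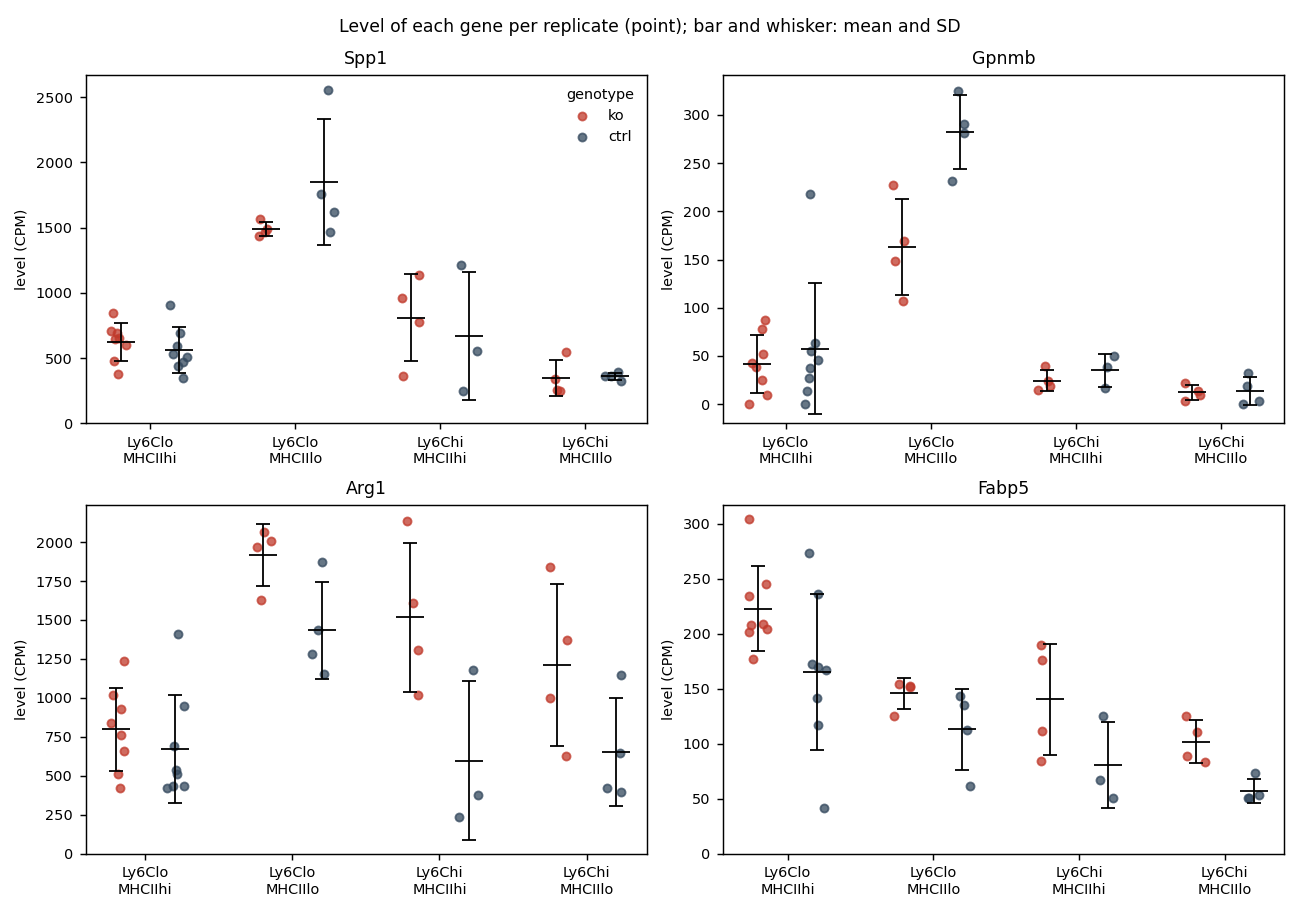
Level of each gene (CPM, linear axis, one scale per gene) in each replicate, by sorted population, with ko left of ctrl; the bars show the mean and the SD. Spp1 in Ly6Clo MHCIIlo sits at 1437 CPM or more in all 8 replicates, above every replicate of the other populations, and one Ly6Clo MHCIIhi ctrl replicate stands out for Gpnmb at 218 CPM.

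Spp1, the secreted ligand of the group, ran from 1437 to 2554 CPM in Ly6Clo MHCIIlo with a median of 1526 (8 replicates of both genotypes). In Ly6Chi MHCIIhi it ran from 250 to 1211 with a median of 776 (7 replicates), in Ly6Clo MHCIIhi from 349 to 906 with a median of 599 (16 replicates), and in Ly6Chi MHCIIlo from 246 to 545 with a median of 352 (8 replicates). The lowest Ly6Clo MHCIIlo replicate thus lay above the highest of each other population, but the share of all genes that separate so was not counted. The means were 1670 ± 372 CPM in Ly6Clo MHCIIlo, 751 ± 376 in Ly6Chi MHCIIhi, 594 ± 157 in Ly6Clo MHCIIhi and 354 ± 92.7 in Ly6Chi MHCIIlo (SD), and the Ly6Chi MHCIIhi mean was 834 ± 333 without the replicate that stands apart (n = 6). As these are bulk samples, fewer cells of a type and less RNA per cell cannot be told apart.

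In edgeR's quasi-likelihood test, with Benjamini-Hochberg adjustment over all genes, Spp1 was higher in Ly6Clo MHCIIlo than in Ly6Chi MHCIIlo by 2.27 on the log2 scale (SE 0.15, adjusted p = 2.37e-11). It was also higher in Ly6Clo MHCIIlo than in Ly6Chi MHCIIhi, by 1.09 (SE 0.25, adjusted p = 0.00347; 0.89 and 0.00113 without the ctrl replicate that stands apart). Ly6Clo MHCIIhi fell below Ly6Clo MHCIIlo, with a log2 fold of -1.50 (SE 0.14, adjusted p = 1.66e-09). Spp1 rose in Ly6Chi MHCIIhi over Ly6Chi MHCIIlo, with a log2 fold of 1.14 (SE 0.26, adjusted p = 0.0182; 1.31 and 0.000838 without the replicate). Leaving out Ly6Chi MHCIIhi ctrl replicate 4 or ko replicate 2 ended this call (adjusted p = 0.126 and 0.0530), and so did keeping only the samples of one genotype (0.432 for ctrl and 0.0518 for ko). It was higher in Ly6Clo MHCIIhi than in Ly6Chi MHCIIlo (log2 fold 0.73, SE 0.16, adjusted p = 0.000403). The neighbours Ly6Clo MHCIIhi and Ly6Chi MHCIIhi gave a log2 fold of -0.39 (SE 0.21, adjusted p = 0.234), which became -0.54 with an adjusted p of 0.0498 without the replicate that stands apart.

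Among 7 tested genes for osteopontin receptors, 3 were higher and 3 lower in Ly6Clo MHCIIlo than in Ly6Chi MHCIIlo. The higher ones were the integrin chains Itga9 (log2 fold 3.68), Itgb5 (1.82) and Itgb1 (0.56). The lower ones were Cd44 (-1.46), Itga5 (-0.96) and Itga4 (-0.83). The median fold of the list was 0.48, against 0.03 over all genes tested, of which 18.3% were higher and 18.9% lower. In Ly6Clo MHCIIhi against Ly6Clo MHCIIlo, 2 of 7 passed and both were lower, Cd44 (-0.65) and Itgb1 (-0.63), with a list median of -0.33 against -0.000979 over all genes. There 12.5% of all genes were higher and 13% lower. Cd44 in Ly6Clo MHCIIlo thus lay between its levels in Ly6Chi MHCIIlo and Ly6Clo MHCIIhi.

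**Figure D2:**
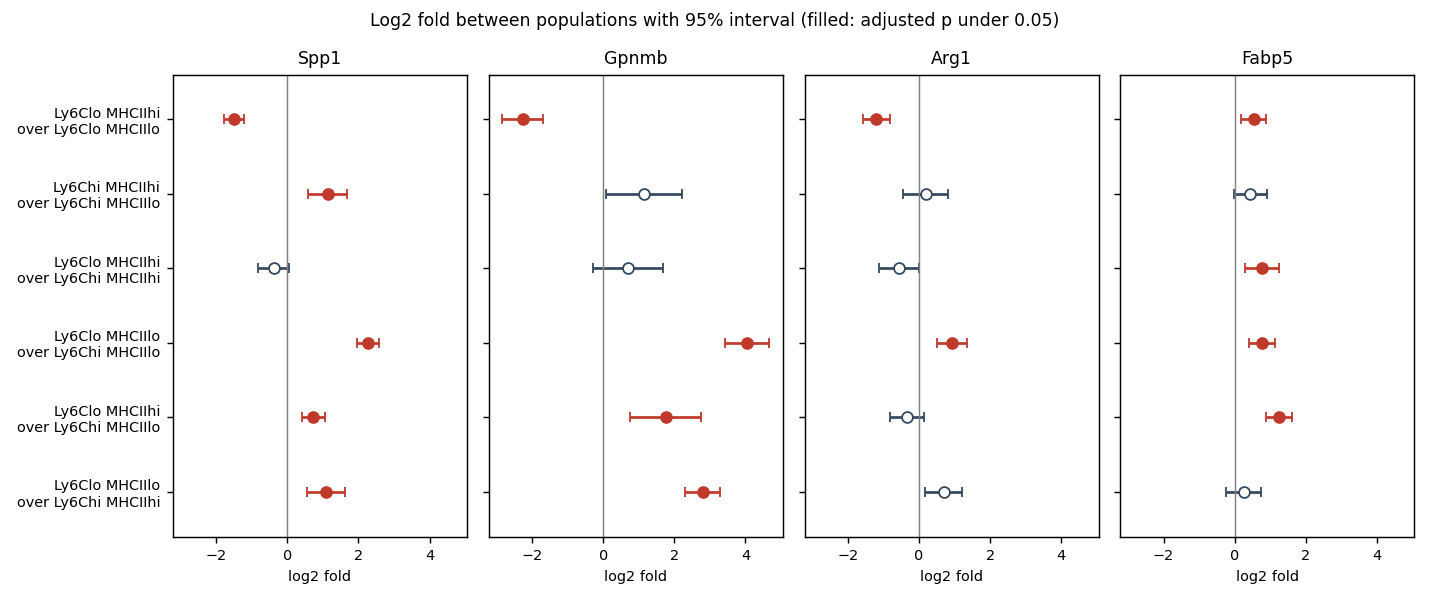
Log2 fold between sorted populations for each gene, first-named population over the second, with the 95% interval; filled points passed an adjusted p of 0.05. Gpnmb in Ly6Clo MHCIIlo against Ly6Chi MHCIIlo lies farthest from 0, at 4.05, and Fabp5 is the only one of the 4 genes above 0 in Ly6Clo MHCIIhi against Ly6Clo MHCIIlo.

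Gpnmb, the lysosomal and surface glycoprotein, had 0 to 11 counts per replicate in both Ly6Chi populations. Its level ran from 107 to 325 CPM in Ly6Clo MHCIIlo (median 229), from 0 to 218 in Ly6Clo MHCIIhi (median 40.5), from 14.3 to 50.1 in Ly6Chi MHCIIhi (median 23.9) and from 0 to 32.1 in Ly6Chi MHCIIlo (median 11.5). All 8 Ly6Clo MHCIIlo replicates lay above all Ly6Chi replicates, and 15 of 16 Ly6Clo MHCIIhi replicates lay below the lowest Ly6Clo MHCIIlo replicate. The share of all genes that separate so between populations was not counted. The means were 223 ± 76.0 CPM in Ly6Clo MHCIIlo, 49.6 ± 51.7 in Ly6Clo MHCIIhi, 28.8 ± 13.7 in Ly6Chi MHCIIhi and 12.9 ± 11 in Ly6Chi MHCIIlo (SD). The 1 Ly6Clo MHCIIhi replicate not below the lowest Ly6Clo MHCIIlo replicate, ctrl replicate 2, held 12 counts of 51630. A count of 0 was seen in 3 replicates, where 3 counts would have been 17.5 CPM (Ly6Clo MHCIIhi ctrl replicate 4), 65.2 CPM (ko replicate 6) and 13.8 CPM (Ly6Chi MHCIIlo ctrl replicate 2), for counting error alone.

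Gpnmb was higher in Ly6Clo MHCIIlo than in Ly6Chi MHCIIlo by 4.05 on the log2 scale (SE 0.30, edgeR adjusted p = 1.36e-10). Over Ly6Chi MHCIIhi the log2 fold was 2.80 (SE 0.24, adjusted p = 1.18e-07; 2.73 without the replicate that stands apart). Ly6Clo MHCIIhi was lower than Ly6Clo MHCIIlo, with a log2 fold of -2.26 (SE 0.28, adjusted p = 6.18e-07). It was higher than Ly6Chi MHCIIlo, with a log2 fold of 1.75 (SE 0.48, adjusted p = 0.00413), and this call ended when only ctrl samples were kept (adjusted p = 0.110). Neither Ly6Clo MHCIIhi against Ly6Chi MHCIIhi (0.70, adjusted p = 0.359) nor Ly6Chi MHCIIhi against Ly6Chi MHCIIlo (1.14, adjusted p = 0.287) passed, and without the replicate that stands apart these folds were 0.67 (0.399) and 1.22 (0.231).

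The list of MITF and TFE factors and their lysosomal targets had 4 of 10 tested genes higher and none lower in Ly6Clo MHCIIlo than in Ly6Chi MHCIIlo. The largest folds were those of Acp5, tartrate-resistant acid phosphatase (log2 fold 1.63), and the lysosomal enzyme Hexa (1.03), with a list median of 0.38 against 0.03 over all genes. Between Ly6Clo MHCIIhi and Ly6Clo MHCIIlo 1 of 12 passed, Lamp2 (-0.42), a membrane protein of lysosomes, with a list median of -0.12. Over all genes, 18.3% were higher in the first comparison and 13% lower in the second.

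Arg1, the arginine-degrading enzyme, ran from 1152 to 2064 CPM in Ly6Clo MHCIIlo (median 1749), from 233 to 2136 in Ly6Chi MHCIIhi (median 1181), from 399 to 1839 in Ly6Chi MHCIIlo (median 822) and from 421 to 1410 in Ly6Clo MHCIIhi (median 675). The populations overlapped, although 14 of 16 Ly6Clo MHCIIhi replicates lay below the lowest Ly6Clo MHCIIlo replicate. Its means were 1676 ± 352 CPM in Ly6Clo MHCIIlo, 1123 ± 666 in Ly6Chi MHCIIhi, 932 ± 505 in Ly6Chi MHCIIlo and 736 ± 306 in Ly6Clo MHCIIhi (SD). The SD was 59.3% of the mean in Ly6Chi MHCIIhi and 54.2% in Ly6Chi MHCIIlo.

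Arg1 was higher in Ly6Clo MHCIIlo than in Ly6Chi MHCIIlo (log2 fold 0.93, SE 0.21, edgeR adjusted p = 0.000931), and it was lower in Ly6Clo MHCIIhi than in Ly6Clo MHCIIlo (log2 fold -1.20, SE 0.18, adjusted p = 1.56e-05). Ly6Clo MHCIIlo against Ly6Chi MHCIIhi did not pass (log2 fold 0.69, adjusted p = 0.0547; 0.47 and 0.0626 without the replicate that stands apart). It passed in the DESeq2 test (0.0182), with DESeq2 size factors (0.0392), with all libraries kept (0.0266), and without Ly6Chi MHCIIhi ctrl replicate 4 (0.0303) or ko replicate 2 (0.0253). Ly6Clo MHCIIhi against Ly6Chi MHCIIhi gave a log2 fold of -0.56 (adjusted p = 0.166), which became -0.77 with an adjusted p of 0.0293 without Ly6Chi MHCIIhi ctrl replicate 1 and -0.67 with 0.0430 without Ly6Clo MHCIIhi ctrl replicate 3. Ly6Chi MHCIIhi against Ly6Chi MHCIIlo was 0.19 (adjusted p = 0.847; 0.36 and 0.542 without ctrl replicate 1), and Ly6Clo MHCIIhi against Ly6Chi MHCIIlo was -0.33 (adjusted p = 0.261). The low end of this order differed by genotype: the ko means were 797 CPM in Ly6Clo MHCIIhi, 1210 in Ly6Chi MHCIIlo and 1517 in Ly6Chi MHCIIhi, and the ctrl means were 674, 653 and 597 CPM in those populations. In ko samples alone Arg1 was lower in Ly6Clo MHCIIhi than in Ly6Chi MHCIIhi (-0.93, adjusted p = 0.00959) and gave -0.61 against Ly6Chi MHCIIlo (0.0879), and in ctrl samples alone these folds were 0.04 (0.999) and 0.02 (0.984). Whether the folds differed between genotypes is covered by the interaction test given with the genotype comparisons, which Arg1 did not pass.

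Few of the other genes of arginine and polyamine metabolism passed in 2 of the comparisons, where 37.2% and 25.5% of all genes did. In Ly6Clo MHCIIlo against Ly6Chi MHCIIlo, 1 of 8 was higher, the arginine transporter Slc7a2 (log2 fold 1.30), and 1 was lower, the mitochondrial arginase Arg2 (-1.03), with a list median of -0.07 against 0.03 over all genes. Between Ly6Clo MHCIIhi and Ly6Clo MHCIIlo none of 8 passed in edgeR's test, with a list median of 0.01. Ly6Clo MHCIIhi against Ly6Chi MHCIIhi, where 15.7% of all genes passed, had 1 of 8 higher, Sat1 (0.78). There 3 were lower, Arg2 (-1.08), Azin1 (-0.87) and Ass1 (-0.69). Ly6Clo MHCIIhi against Ly6Chi MHCIIlo (42.6%) and Ly6Clo MHCIIlo against Ly6Chi MHCIIhi (23.3%) each had 1 of 8 higher and 2 lower. Ly6Chi MHCIIhi against Ly6Chi MHCIIlo had 0 of 7. In Ly6Clo MHCIIhi against Ly6Clo MHCIIlo genes of alternative activation went the other way from Arg1. Of 8 tested, 4 were higher and none lower in Ly6Clo MHCIIhi, where 12.5% of all genes were higher. They were led by the chemokine Ccl22 (3.72), the mannose receptor Mrc1 (0.86) and the interleukin-4 receptor chain Il4ra (0.66), with a list median of 0.45. Summed dendritic cell markers had a median of 330.5 CPM in Ly6Clo MHCIIhi and 71.4 in Ly6Clo MHCIIlo, and their part in this was not tested. In Ly6Clo MHCIIlo against Ly6Chi MHCIIlo, 1 of 7 was higher, Mrc1 (2.00), and 4 were lower, among them the chitinase-like Chil3 (-4.18), the transglutaminase Tgm2 (-1.70) and the transcription factor Klf4 (-0.94), with a list median of -0.94. Chil3 is also among the monocyte markers used here, and Mrc1 went the same way as Arg1. There 18.3% of all genes were higher and 18.9% lower.

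Genes of hypoxia and glycolysis were included because low oxygen is known to raise Arg1. In Ly6Clo MHCIIlo against Ly6Chi MHCIIlo, 6 of 14 were higher, led by the cytokine Mif (log2 fold 1.60), the mitophagy receptor Bnip3 (1.36) and the glycolytic enzyme Aldoa (0.74), and 2 were lower, Ndrg1 (-1.27) and Pfkp (-0.70), with a list median of 0.26 against 0.03. There 18.3% of all genes were higher and 18.9% lower, and the shares in the other comparisons are given above. Between Ly6Clo MHCIIhi and Ly6Clo MHCIIlo 3 of 14 were lower and none higher in the MHCIIhi cells, Tpi1 (-0.47), Mif (-0.34) and Aldoa (-0.31), with a list median of -0.22. In Ly6Clo MHCIIlo against Ly6Chi MHCIIhi, where Arg1 gave 0.69 (not called), 0 of 14 were higher and 3 lower, with a median of -0.05. Those were Ndrg1 (-1.30), Pfkp (-0.97) and Vegfa (-0.61). Ly6Clo MHCIIhi had 0 of 15 higher and 3 lower against Ly6Chi MHCIIhi, and 4 higher and 2 lower against Ly6Chi MHCIIlo. Ly6Chi MHCIIhi against Ly6Chi MHCIIlo had 1 of 15 higher (6 without the replicate that stands apart) and 0 lower. The part of low oxygen in Arg1 was not tested.

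Fabp5, the fatty acid carrier, ran from 41.7 to 304 CPM in Ly6Clo MHCIIhi (median 203), from 61.4 to 154 in Ly6Clo MHCIIlo (median 139), from 50.8 to 190 in Ly6Chi MHCIIhi (median 111) and from 50.7 to 125 in Ly6Chi MHCIIlo (median 78.4). The ranges overlapped, and 13 of 16 Ly6Clo MHCIIhi replicates lay above the highest Ly6Clo MHCIIlo replicate. Its means were 194 ± 62.8 CPM in Ly6Clo MHCIIhi, 129 ± 31.1 in Ly6Clo MHCIIlo, 115 ± 52.9 in Ly6Chi MHCIIhi and 79.5 ± 28.1 in Ly6Chi MHCIIlo (SD).

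Against Ly6Chi MHCIIlo, Fabp5 was higher in Ly6Clo MHCIIhi (log2 fold 1.25, SE 0.18, edgeR adjusted p = 1.62e-06) and in Ly6Clo MHCIIlo (0.77, SE 0.18, adjusted p = 0.00131). It was also higher in Ly6Clo MHCIIhi than in Ly6Chi MHCIIhi (0.76, SE 0.23, adjusted p = 0.0202; 0.73 and 0.0292 without the replicate that stands apart), a call that ended without Ly6Chi MHCIIhi ctrl replicate 4 (0.0857) or ko replicate 4 (0.0738) and with only ctrl samples (0.264). Ly6Clo MHCIIhi lay above Ly6Clo MHCIIlo by 0.52 (SE 0.18, adjusted p = 0.0271), and this call ended without Ly6Clo MHCIIlo ctrl replicate 2 (0.0576) or ko replicate 1 (0.0560) and with only ctrl samples (0.363). Between the neighbours Ly6Clo MHCIIlo and Ly6Chi MHCIIhi (0.24, adjusted p = 0.476) and between Ly6Chi MHCIIhi and Ly6Chi MHCIIlo (0.43, adjusted p = 0.362) no call was made, and without the replicate that stands apart these folds were 0.22 (0.516) and 0.44 (0.336).

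The list of fatty acid binding and lipid sensing had 3 of 8 genes higher in Ly6Clo MHCIIlo than in Ly6Chi MHCIIlo. These were the sterol-sensing receptor Nr1h3 (log2 fold 1.88), the cholesterol exporter Abca1 (0.72) and the desaturase Scd2 (0.65), while the triglyceride-forming enzyme Dgat2 was lower (-2.22), and the list median was 0.28. Within Ly6Clo cells, MHCIIhi against MHCIIlo, 3 of 8 were lower and none higher, Scd2 (-0.83), Abca1 (-0.70) and the carnitine transferase Cpt1a (-0.62), with a list median of -0.13. Fabp5, at 0.52, ran opposite to these 3 genes in that comparison. The shares over all genes were 18.3% higher and 18.9% lower in the first comparison, and 12.5% and 13% in the second.

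Genes reported in lipid-associated macrophages, the programme linked to TREM2, were also measured in these sorted cells. Over all genes, at most 20.9% were higher and at most 21.7% lower in any comparison of populations. In Ly6Clo MHCIIlo against Ly6Chi MHCIIlo, 18 of 21 were higher and none lower, with a median log2 fold of 1.5 against 0.03 over all genes. The largest folds were those of the elastase Mmp12 (3.81), the fatty acid receptor Cd36 (3.49) and the dying-cell receptor Axl (3.37). In Ly6Clo MHCIIhi against Ly6Clo MHCIIlo, 13 of 21 were lower and none higher, with a median of -0.40, led by Cd36 (-2.23), the lipoprotein lipase gene Lpl (-1.34) and Mmp12 (-1.15). In Ly6Chi MHCIIhi against Ly6Chi MHCIIlo 5 of 19 were higher and none lower, and without the replicate that stands apart 7 were higher. Ly6Clo MHCIIhi against Ly6Chi MHCIIhi had 13 of 21 higher (median 0.67 against 0.02 over all genes) and 2 lower, the tetraspanin Cd9 (-0.69) and the actin-capping protein Capg (-0.59), or 13 higher and 3 lower without the replicate that stands apart. Ly6Clo MHCIIhi against Ly6Chi MHCIIlo had 15 of 21 higher (median 1.07) and 3 lower, Capg (-0.56), the galectin Lgals3 (-0.43) and Cd9 (-0.33). Macrophage markers were also high in both Ly6Clo populations, at the sums given above, and their part in these differences was not tested.

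**Figure D3:**
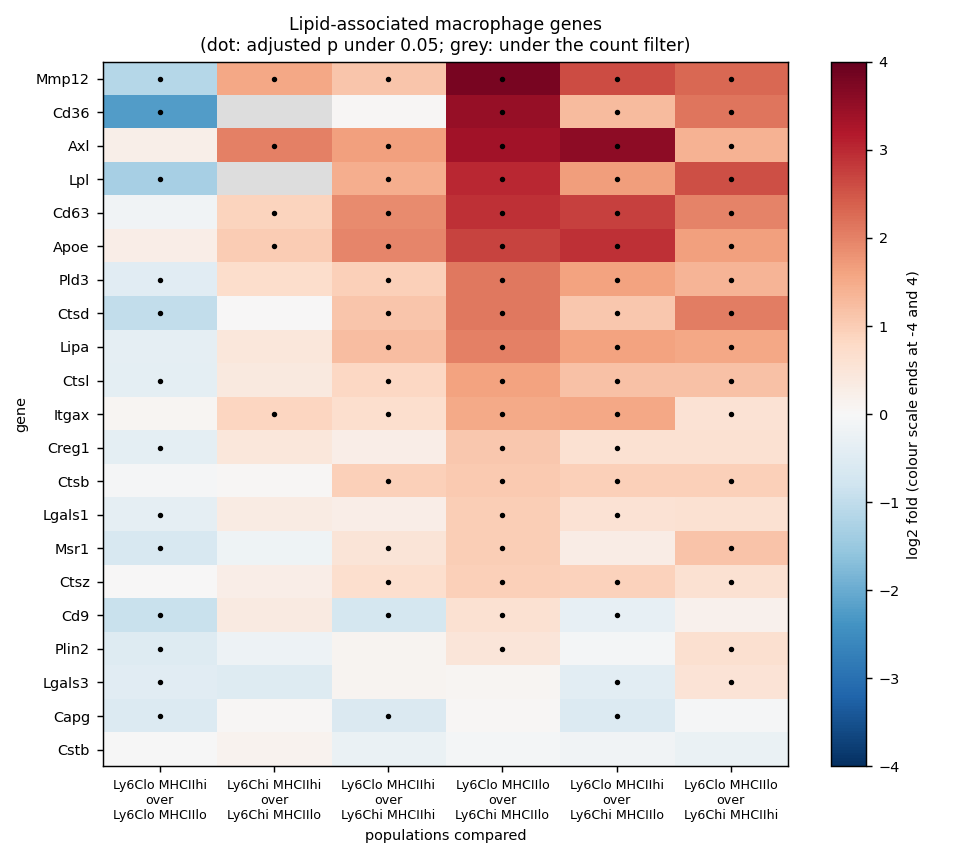
Heat map of the log2 fold of each tested gene of the lipid-associated macrophage list (rows) in each comparison of sorted populations (columns), with a dot where the adjusted p was under 0.05 and grey where a gene was under the count filter. In Ly6Clo MHCIIlo over Ly6Chi MHCIIlo 18 of 21 genes passed on the higher side, and in Ly6Clo MHCIIhi over Ly6Clo MHCIIlo 13 of 21 passed on the lower side.

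Trem2 was not analysed here, and genes of its signalling pathway were read instead. Of 7 tested, 1 was higher in Ly6Clo MHCIIlo than in Ly6Chi MHCIIlo, the phosphatase Inpp5d (log2 fold 0.36), and 3 were lower, the adaptor Tyrobp (-0.51), the phospholipase Plcg2 (-0.50) and the kinase Syk (-0.39), with a list median of -0.16. For Ly6Clo MHCIIhi against Ly6Clo MHCIIlo, Tyrobp was higher (0.23) and Inpp5d (-0.57) and Syk (-0.30) were lower, with a list median of -0.07. These folds are small beside those of Spp1 and Gpnmb in the same comparisons. Among all genes 18.3% were higher and 18.9% lower in the first comparison, and 12.5% and 13% in the second.

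The genes whose patterns were nearest to each member were found by the root mean square difference (RMS) between centred log2(CPM + 1) means over the 8 groups, among 5613 genes. Nearest to Spp1 were Lig1 (RMS 0.23), a DNA ligase, Top2a (0.35), a topoisomerase of dividing cells, and Gnl3 (0.38), a nucleolar protein, where the median gene had 0.93. Lig1 averaged 97.6 and 100.5 CPM in Ly6Clo MHCIIlo ko and ctrl, and 19.3 to 46.9 CPM in the other groups. Top2a averaged 52.9 and 40.7 CPM in Ly6Clo MHCIIlo ko and ctrl, below the 89.0 ± 126 CPM of Ly6Chi MHCIIhi ctrl (SD). In Ly6Clo MHCIIhi ctrl Top2a averaged 57.3 ± 68.6 CPM. Gnl3 averaged 88.7 and 106 CPM in Ly6Clo MHCIIlo ko and ctrl, and 83.5 ± 86.7 CPM in Ly6Chi MHCIIhi ctrl. A part of dividing cells in the Spp1 result was not tested. Nearest to Gpnmb were Csf1 (0.63), the macrophage growth factor, Mcpt8 (0.68), a basophil protease, and Gata2 (0.69), a transcription factor of mast cells and basophils, where the median gene had 1.71. Csf1 averaged 188 and 182 CPM in Ly6Clo MHCIIlo ko and ctrl, and 14.7 to 54.2 CPM elsewhere, while Mcpt8 averaged 45.2 and 50.6 CPM there, and at most 5.55 CPM elsewhere. Over 5 mast cell and basophil genes the summed median was 228 CPM in Ly6Clo MHCIIlo (88.6 to 1511), 139 in Ly6Clo MHCIIhi (0 to 1559), 100.2 in Ly6Chi MHCIIhi (7.95 to 489) and 36.4 in Ly6Chi MHCIIlo (3.38 to 564). Mcpt8 was at 0 in every replicate of Ly6Chi MHCIIhi ko and of Ly6Chi MHCIIlo ctrl, and the part of these genes in the Gpnmb result was not tested.

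Nearest to Fabp5 were Cd38 (RMS 0.16), a surface enzyme that consumes NAD, Cd164 (0.21), a sialomucin, and Haghl (0.22), where the median gene had 0.72. Cd38 averaged 188 and 132 CPM in Ly6Clo MHCIIhi ko and ctrl and 84.7 and 53.0 CPM in Ly6Chi MHCIIlo ko and ctrl. For Arg1 the nearest were Tmem161b (0.25), Hip1r (0.25) and Elf3 (0.26), all with group means of 38.9 CPM or less and SDs often as large as the mean, where the median gene had 0.77. Among the members, the RMS was 0.64 between Arg1 and Spp1, 0.71 between Arg1 and Fabp5, 0.82 between Fabp5 and Spp1, 0.90 between Gpnmb and Spp1, 1.40 between Arg1 and Gpnmb and 1.57 between Fabp5 and Gpnmb. By this measure Spp1 and Arg1 were nearer to each other than any other pair of members. Each member had genes outside the group that were nearer to it. The RMS also grows with the size of a gene's own differences between groups. Their root mean square was 1.66 for Gpnmb, 0.82 for Spp1, 0.69 for Arg1 and 0.57 for Fabp5. The distances of Gpnmb therefore reflect its size of change as well as its order, and Spp1 and Gpnmb shared their highest and lowest populations.

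The design asks whether loss of Ccl17 changes these cells, so each gene was compared between ko and ctrl within each population. In Ly6Clo MHCIIlo, Gpnmb was measured at 227, 107, 148 and 169 CPM in the ko replicates, against 282, 232, 325 and 291 CPM in the ctrl replicates. All 4 ko replicates lay below all 4 ctrl replicates. For 4 against 4 replicates the smallest possible exact permutation p is 0.0286, and the share of all genes that separate so was not counted. The log2 fold was -0.81 (SE 0.22, 95% interval -1.28 to -0.35), and with an adjusted p of 0.472 over 3182 genes in edgeR's test it was not called. None of the 4 members was called there, where 0.0314% of genes passed. Leaving out each replicate in turn gave Gpnmb folds of -0.99 to -0.66, none of them called.

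Arg1 in Ly6Clo MHCIIlo was measured at 1628, 1967, 2007 and 2064 CPM in ko, against 1284, 1152, 1436 and 1869 CPM in ctrl. Of the ko replicates 3 lay above every ctrl replicate, and the log2 fold was 0.41 (SE 0.16, edgeR adjusted p = 0.998). Spp1 had 1469, 1489, 1437 and 1564 CPM in ko, against 1470, 1616, 1757 and 2554 CPM in ctrl (log2 fold -0.32, 95% interval -0.66 to 0.02). Fabp5 had 125, 151, 154 and 153 CPM in ko, against 143, 61.4, 112 and 135 CPM in ctrl (0.34, 95% interval -0.17 to 0.85). Both overlapped between genotypes. In this population the 4 red cell genes summed to 1631 to 6716 CPM in ko and 62.3 to 1351 CPM in ctrl, without overlap, and their part in these differences was not tested.

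**Figure D4:**
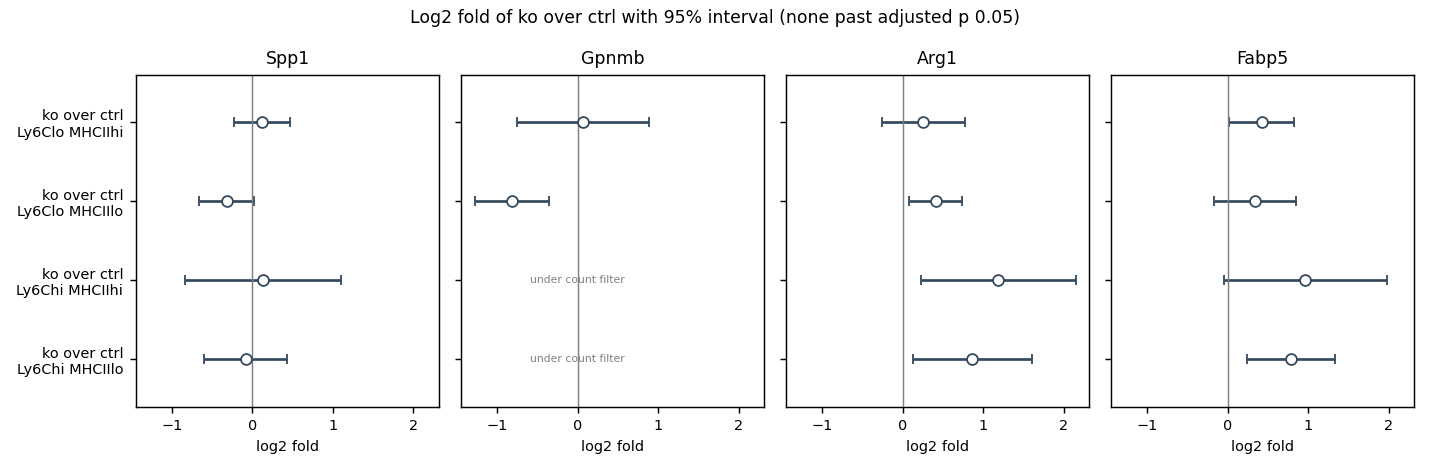
Log2 fold of ko over ctrl within each sorted population for each gene, with the 95% interval. Gpnmb in Ly6Clo MHCIIlo lies at -0.81. Arg1 (0.26 to 1.19) and Fabp5 (0.34 to 0.97) lie above 0 in all 4 populations. No point passed an adjusted p of 0.05, and Gpnmb was under the count filter in both Ly6Chi populations.

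Ly6Chi MHCIIlo cells had Fabp5 at 110.4, 125, 89.2 and 83.0 CPM in ko, against 73.8, 50.7, 50.7 and 53.1 CPM in ctrl. The genotypes did not overlap, but the share of all genes that separate so was not counted. The log2 fold was 0.78 (SE 0.26, 95% interval 0.24 to 1.33, edgeR adjusted p = 0.273). Arg1 had 1374, 1839, 998 and 628 CPM in ko, against 645, 424, 1146 and 399 CPM in ctrl (0.86, SE 0.35, adjusted p = 0.381). Of the ko replicates 2 lay above every ctrl replicate, and with no count filter, over more genes, Arg1 passed (0.90, adjusted p = 0.0109). Spp1 had 340, 545, 257 and 246 CPM in ko, against 366, 391, 321 and 364 CPM in ctrl (-0.08, 95% interval -0.60 to 0.43). None of the 3 members tested was called, where 0.0756% of 3966 genes passed. Gpnmb, under the count filter, had 9.20, 22.3, 3.43 and 13.8 CPM in ko, against 32.1, 0, 3.38 and 19.0 CPM in ctrl. Its mean log2(CPM + 1) was 0.61 higher in ko (two-sided exact permutation p = 0.629, smallest possible 0.0286), although its mean CPM was lower, at 12.2 in ko and 13.6 in ctrl. Summed red cell genes had a median of 1494 CPM in ko and 58.1 CPM in ctrl here, and mast cell and basophil genes 228 CPM in ko and 14.2 CPM in ctrl, and their part in these values was not tested.

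In Ly6Chi MHCIIhi, Arg1 had 1308, 2136, 1018 and 1606 CPM in ko, against 233, 376 and 1181 CPM in ctrl. The lowest 2 of the 3 ctrl values lay below every ko value. The log2 fold was 1.19 (SE 0.44, 95% interval 0.22 to 2.15, edgeR adjusted p = 0.709), and it was 0.80 without ctrl replicate 1, which stands apart, and 2.16 with an adjusted p of 0.0416 without ctrl replicate 4. Fabp5 had 176, 190, 111 and 84.7 CPM in ko, against 66.6, 125 and 50.8 CPM in ctrl, from 4 to 12 counts per ctrl replicate (0.97, SE 0.46, adjusted p = 0.709; 1.11 without ctrl replicate 1). Spp1 had 776, 1138, 366 and 963 CPM in ko, against 250, 551 and 1211 CPM in ctrl, and its log2 fold of 0.13 (95% interval -0.84 to 1.10) turned to -0.24 without ctrl replicate 1. Gpnmb, under the count filter, had 39.5, 14.3, 23.9 and 19.3 CPM in ko, against 16.7, 50.1 and 38.1 CPM in ctrl (exact permutation p = 0.4, smallest possible 0.0571). Of 3509 genes 0% passed in this population, and 244 had an unadjusted p under 0.05 in edgeR's test, while DESeq2 called 4 genes, no member among them, and had 187 at an unadjusted p under 0.05. Summed macrophage markers were 5652, 5836, 5701 and 6219 CPM in ko, against 2548, 3381 and 6966 CPM in ctrl, and Cd74 was 10966, 11490, 14360 and 10262 CPM in ko, against 3630, 6611 and 10595 CPM in ctrl. The 3 ctrl replicates stood in the same order on both measures as on Arg1, but the ko replicates did not. Among the ko replicates, replicate 3 had the highest Cd74 and the lowest Arg1. The part of these markers in the differences was not tested.

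In Ly6Clo MHCIIhi, the population with most replicates, Fabp5 ran from 177 to 304 CPM in ko (median 208, 8 replicates) and from 41.7 to 274 CPM in ctrl (median 168, 8 replicates). All 8 ko replicates lay above the ctrl mean, but the groups overlapped (log2 fold 0.42, SE 0.20, edgeR adjusted p = 0.923). Spp1 ran from 375 to 847 CPM in ko (median 652) and from 349 to 906 CPM in ctrl (median 522), with a log2 fold of 0.12 (95% interval -0.23 to 0.47). Arg1 ran from 424 to 1237 CPM in ko (median 801) and from 421 to 1410 CPM in ctrl (median 524), with a log2 fold of 0.26 (95% interval -0.26 to 0.77). Gpnmb ran from 0 to 86.8 CPM in ko (median 40.5) and from 0 to 218 CPM in ctrl (median 41.6), with a log2 fold of 0.07 (95% interval -0.75 to 0.89) that turned to -0.31 in the DESeq2 test, although its mean CPM was 41.5 in ko and 57.6 in ctrl. These 3 genes overlapped widely between genotypes. The ctrl replicate 3 differed from the rest of this group: its chi-square per degree of freedom over genes was 7.88 to 11.5 against each other ctrl replicate, where the other pairs had 1.91 to 5.69. Its monocyte markers summed to 1494 CPM, against 331 to 582 CPM in the other ctrl replicates, and its macrophage markers to 8956 CPM, against 12050 to 18868 CPM. It held the highest Arg1 and the lowest Fabp5 of the ctrl replicates, and without it the log2 folds of ko over ctrl were 0.52 for Arg1 (adjusted p = 0.966), 0.32 for Fabp5, 0.07 for Spp1 and 0.01 for Gpnmb. Between populations, leaving it out changed no member's call other than that of Arg1 against Ly6Chi MHCIIhi given above, and Fabp5 over Ly6Clo MHCIIlo became 0.57 (adjusted p = 0.00335). Summed red cell genes had a median of 1376 CPM in ko and 189.7 CPM in ctrl, and mast cell and basophil genes 320.2 CPM in ko and 50.1 CPM in ctrl, and their part was not tested. Of 5660 genes 0% passed in this population, and 295 had an unadjusted p under 0.05 (236 with DESeq2, which also called 0).

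Across the 4 genotype comparisons 0 member tests passed in edgeR or DESeq2. Unadjusted p-values under 0.05 in edgeR were found for 1 of 4 members in Ly6Clo MHCIIhi (Fabp5), 2 of 4 in Ly6Clo MHCIIlo (Gpnmb and Arg1), 1 of 3 in Ly6Chi MHCIIhi (Arg1) and 2 of 3 in Ly6Chi MHCIIlo (Arg1 and Fabp5). Over all genes tested the same counts were 295 of 5660, 139 of 3182, 244 of 3509 and 444 of 3966. Of the genes of the 8 lists none was called by edgeR, and 13 of 86, 3 of 75, 9 of 75 and 10 of 72 had an unadjusted p under 0.05 in the same order, and DESeq2 called 1, in Ly6Chi MHCIIlo. Whether the ko difference itself varied between populations was tested over 6032 genes, of which 0.0663% passed, and no member did (adjusted p of 0.916 to 0.965).

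Repeat libraries show the technical spread between libraries of one replicate, which does not include the spread between samples. In Ly6Clo MHCIIhi, 8 replicates had a second library, and the higher of the pair exceeded the lower by a median of 1.14-fold for Spp1 (at most 1.72-fold), 1.10-fold for Arg1 (at most 1.52-fold) and 1.13-fold for Fabp5 (at most 1.35-fold). Gpnmb, with few counts, differed by a median of 1.76-fold and at most 2.66-fold. When every library entered the fit separately, barcode class moved no member past the threshold (log2 folds of -0.19 to 0.06, adjusted p of 0.925 to 1). Only Ly6Clo MHCIIhi holds both barcode classes within a genotype, so this fit cannot speak for the other populations. It also treats 2 libraries of one replicate as separate samples.

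**Figure D5:**
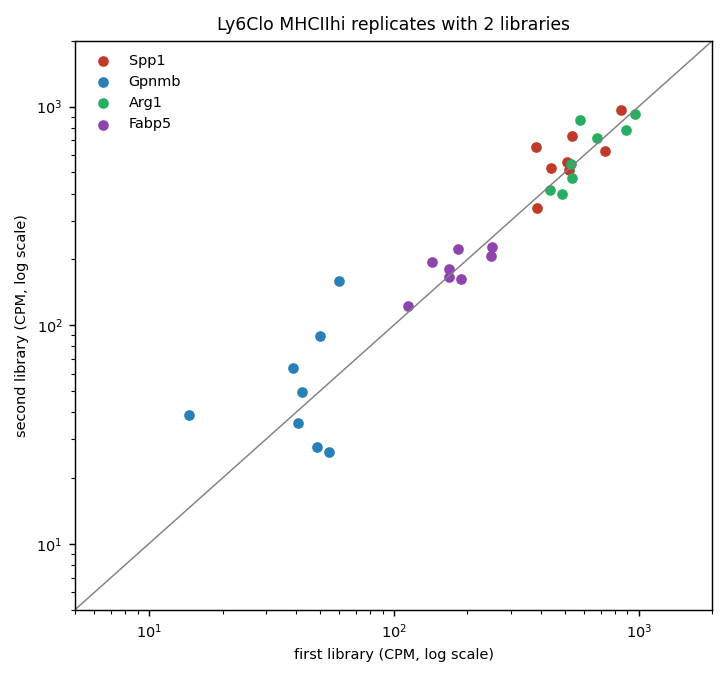
CPM of each gene in the 2 libraries made from one replicate, for the 8 Ly6Clo MHCIIhi replicates that have a pair, on log axes with the line of equality. Spp1, Arg1 and Fabp5 lie close to the line and Gpnmb scatters more widely, with a median fold of 1.76 between libraries.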

How the data were processed

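Per the labels' protocols, bulk 3′ libraries of poly(A) RNA were made from the sorted cells. In the deposited table the values are whole-number counts per gene symbol and library, as the authors counted them, with no normalization recorded. Per the submitters' processing notes the build was GRCm38 and the tools were R 3.4.4 and DESeq2 1.18.1. Neither the aligner and counter nor the use of molecular identifiers is given in the sources used here, so floors cover counting error only. Depth per replicate sets the precision, from 34362 counts upward.

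Counts of 2 libraries of one replicate were added, and libraries under 28006.25 counts (0.1 of the median of 280062.5) were left out, which removed 1 of 48 and left 39 replicates. A row called z (127 counts, 0.000967%) carries no gene name and stayed out of library sizes and tests. Of 24538 rows, 15856 (64.6%) carry a GENCODE M21 symbol. Levels are CPM over TMM-scaled library sizes (edgeR 4.0.16, R 4.3.3). Tests were edgeR's quasi-likelihood F test on the counts after filterByExpr (minimum count 10, minimum total 15), with p-values adjusted by Benjamini-Hochberg across every gene tested and a threshold of 0.05. Comparisons of populations had genotype in the model, and the interaction had 3 coefficients. SE is the log2 fold divided by the root of F. A member under the filter was tested on mean log2(CPM + 1) by exact permutation, two-sided.

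The members and the 8 gene lists were chosen with earlier results of these data known. Named are the members, the 3 genes nearest to each in pattern, up to 3 genes of a list per direction with the largest folds among those past the threshold, Ccl17 and the sort markers. A few listed genes are not reported here. The fits were tested on simulated data with one common spread for all genes. At a true log2 fold of 1, ko against ctrl recovered 51.7% of changed genes in Ly6Chi MHCIIlo and 91.4% in Ly6Clo MHCIIhi. Ly6Clo MHCIIlo against Ly6Chi MHCIIlo recovered 81.5% at that size. At a log2 fold of 2 all 3 recovered 100%, and smaller folds were not simulated. Alternatives were DESeq2 1.42.0 (size factors or test), keeping all libraries, no count filter, library 1 only, libraries entered separately (also with barcode class), one fit of all 8 groups, a block for the replicate number, one genotype only, pseudocounts of 0.5 and 5, leaving out each replicate and, added after seeing the data, leaving out libraries under 100000 counts. Housing entered no model, as no sample carries a housing label.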

Additional observations from a re-analysis of the deposited data

Results flagged for a closer look

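In 3 of 28 sets of one gene in one group, 1 replicate lay far from the others by Dixon's test, which chance alone flags in about 1 of 20 groups. Gpnmb in Ly6Clo MHCIIhi ctrl replicate 2 was 218 CPM, from 12 counts, above the other 7 ctrl replicates; without it the log2 fold of ko over ctrl was 0.23 and that of Ly6Clo MHCIIhi over Ly6Clo MHCIIlo was -2.34. Fabp5 in Ly6Clo MHCIIlo ko replicate 1 was 125 CPM, below the other 3 ko replicates. Fabp5 in Ly6Chi MHCIIlo ctrl replicate 1 was 73.8 CPM, above the other 3 ctrl replicates and still below every ko replicate.

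The library left out for its low depth, Ly6Chi MHCIIhi ctrl replicate 2, held 4 counts of Spp1 and 5 counts of Arg1 among 8409, both above the 3 counts that a count of 0 allows, which is 357 CPM at that depth.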

How the results depend on the processing

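Single members kept their direction and their side of the threshold in 402 of the values under other settings and in 587 of those without one replicate; 9 and 6 lost a call, 9 and 6 gained one, and 6 and 9 changed sign. The causes of these shifts were not tested. Some settings also test more genes (no filter) or fewer samples. The low counts of Gpnmb in the Ly6Chi cells and the 3 ctrl replicates of Ly6Chi MHCIIhi limit what was detectable.

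Changes of sign were all in folds that did not pass. Gpnmb, ko over ctrl in Ly6Clo MHCIIhi, was -0.31 with the DESeq2 test, -0.022 with library 1 only and -0.17 to 0.23 without one replicate. Spp1, ko over ctrl in Ly6Chi MHCIIhi, was -0.56 without libraries under 100000 counts, which leaves 1 ctrl replicate assumed to vary like the others, and -0.24 to 0.89 without one replicate (-0.10 without ko replicate 2). Spp1, ko over ctrl in Ly6Chi MHCIIlo, was 0.10 with each library and barcode class and -0.38 to 0.059 without one replicate. With ctrl samples only, Arg1 was 0.035 in Ly6Clo MHCIIhi against Ly6Chi MHCIIhi and 0.017 against Ly6Chi MHCIIlo. Arg1 in Ly6Chi MHCIIhi against Ly6Chi MHCIIlo was -0.088 to 0.37 without one replicate.

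Genes called between ko and ctrl changed as follows. In Ly6Clo MHCIIhi (0) there were 57 with no filter and 2 each with all 8 groups, with each library and with each library and barcode class. In Ly6Clo MHCIIlo (1) there were 2 with DESeq2, 24 with no filter, 4 with the replicate block and 0 with all 8 groups or each library. In Ly6Chi MHCIIhi (0) there were 4 with DESeq2, 1.1e+02 (rounded) with no filter, 4 without libraries under 100000 counts, 33 with all 8 groups, 63 with each library and 20 with barcode class added. In Ly6Chi MHCIIlo (3) there were 14 with DESeq2, 61 with no filter (1 member, Arg1) and 0 with each library, with or without barcode class. The interaction (4) had 11 with DESeq2, 112 with no filter, 1 with all libraries kept, 0 without libraries under 100000 counts and 12 with each library, with or without barcode class.

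Between populations, Ly6Clo MHCIIhi against Ly6Clo MHCIIlo (1228) had 708 with the block, 326 with ctrl only and 597 with ko only. Ly6Chi MHCIIhi against Ly6Chi MHCIIlo (142) had 303 with no filter, 304 with all 8 groups, 327 with each library, 341 with barcode class added, 0 with ctrl only and 66 with ko only, and 0 members with either genotype alone. Ly6Clo MHCIIhi against Ly6Chi MHCIIhi (872) had 443 with the block and 61 with ctrl only; members called (1) were 2 without libraries under 100000 counts or with ko only, and 0 with the block or ctrl only. Ly6Clo MHCIIlo against Ly6Chi MHCIIlo (1614) had 767 with ctrl only and 872 with ko only. Ly6Clo MHCIIhi against Ly6Chi MHCIIlo (2427) had 1262 and 1499. Ly6Clo MHCIIlo against Ly6Chi MHCIIhi (973) had 32 with ctrl only, and 1 member.

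In no comparison did every same-numbered pair of replicates deviate together with a correlation over 0.1, and the labels give no shared animal or batch, so the numbers were not taken as pairs. All pairs were positive in Ly6Chi MHCIIhi against Ly6Chi MHCIIlo (0.047 to 0.23, 4 of 7 over 0.1), Ly6Clo MHCIIlo against Ly6Chi MHCIIlo (0.0082 to 0.26, 2 of 8) and Ly6Clo MHCIIlo against Ly6Chi MHCIIhi (0.037 to 0.099, 0 of 7, with 4 of 7 matching best with their own number), and no comparison had every pair match best. Under the block Fabp5 lost its calls in Ly6Clo MHCIIhi against Ly6Clo MHCIIlo (0.48, edgeR adjusted p = 0.126) and against Ly6Chi MHCIIhi (0.126), and Arg1 gained one in Ly6Clo MHCIIlo against Ly6Chi MHCIIhi (0.0260).

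Without one replicate, genes called ranged over 0 to 0 (ko over ctrl, Ly6Clo MHCIIhi), 0 to 6 (Ly6Clo MHCIIlo), 0 to 28 (Ly6Chi MHCIIhi), 0 to 7 (Ly6Chi MHCIIlo) and 0 to 91 (interaction), with 28 and 91 both without Ly6Chi MHCIIhi ctrl replicate 4. Between populations they were 1077 to 1336 (Ly6Clo MHCIIhi against Ly6Clo MHCIIlo), 67 to 218 (Ly6Chi MHCIIhi against Ly6Chi MHCIIlo, lowest without ctrl replicate 4 and highest without ctrl replicate 1 of Ly6Chi MHCIIhi), 687 to 1004 (Ly6Clo MHCIIhi against Ly6Chi MHCIIhi), 1552 to 1699 (Ly6Clo MHCIIlo against Ly6Chi MHCIIlo), 2288 to 2529 (Ly6Clo MHCIIhi against Ly6Chi MHCIIlo) and 768 to 1260 (Ly6Clo MHCIIlo against Ly6Chi MHCIIhi). Members called ranged over 3 to 4, 0 to 1, 0 to 3, 4 to 4, 3 to 3 and 2 to 3 in the same order, and over 0 to 1 in Ly6Chi MHCIIhi ko over ctrl.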
